A study of Rattus norvegicus with 6 samples.

Results

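Glucose uptake and glycolysis were followed through 7 genes in primary bone marrow stromal cells (BMSCs) of the rat, the adherent marrow cells that can form bone, fat and cartilage. The genes are Slc2a1, Hk2, Gapdh, Pgk1, Eno1, Pkm and Ldha. They were picked as named Ensembl gene IDs from a table of 32883 IDs, and all 7 were among the 12702 genes with enough reads to be tested. The symbols came with the list of IDs. The reference used here gives an Ensembl ID for 0 of its 47357 genes, so the pairs of ID and symbol were not checked against a second source.

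Messenger RNA was sequenced from 6 libraries, 3 in each of 2 groups. Hypoxia libraries came from BMSCs kept at 1% O2 for 7 days under a controlled gas mixture, and Control libraries came from BMSCs in culture labelled normal, for which no oxygen percentage is given. Per the series' design text the culture time of 7 days applies to both groups. The medium of both was alpha-MEM with fetal bovine serum at 10%, renewed every 2 days. Strain, age, sex and the number of animals are not given. It is also unstated whether the 3 libraries of a group stem from different rats or dishes, so the spread among them may be technical. A p-value here reflects that spread and, in the edgeR test used below, also the spread of the other tested genes. The extraction protocol speaks of muscle, whereas every other label gives BMSCs, and the cell type was not checked from markers because only the 7 IDs carry symbols here. Reads assigned to genes numbered 13273781 to 13361629 in Control and 14879124 to 18533675 in Hypoxia libraries. Control replicate 2 stood apart. Over 5043 genes whose average log2 CPM reached 5, the 5th and 95th percentiles of its log2 difference from the mean of the other controls were -0.31 and 0.20, against -0.13 and 0.14 between Control replicates 1 and 3. A difference in culture or preparation batch between the groups cannot be told apart from oxygen.

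Cells take up glucose through facilitative transporters, of which GLUT1, the product of Slc2a1, serves basal uptake in many cell types. Hexokinase 2 (Hk2) phosphorylates glucose and keeps it in the cell. The later, energy-yielding steps are run by glyceraldehyde-3-phosphate dehydrogenase (Gapdh), phosphoglycerate kinase 1 (Pgk1), enolase 1 (Eno1) and muscle-type pyruvate kinase (Pkm). Lactate dehydrogenase A (Ldha) turns pyruvate into lactate and restores the NAD+ that Gapdh uses. Transcription of these genes is known to be raised by hypoxia-inducible factor in many cell types when oxygen is low, and stromal cells of the marrow live in a tissue poor in oxygen.

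All 7 genes rose at 1% O2, by 2.20-fold for Gapdh at the least and by 6.37-fold for Slc2a1 at the most. Pgk1 rose 5.03-fold, Ldha 4.34-fold, Hk2 3.44-fold, Eno1 2.74-fold and Pkm 2.54-fold. Each passed an adjusted p of 0.05 in edgeR's quasi-likelihood test, with Benjamini-Hochberg adjustment over all tested genes, and each was more than 2-fold higher. Over all 12702 tested genes, 23.1% were called higher and 2.83% were called at least 2-fold higher, while 45.0% were called in either direction. The 7 genes were chosen with earlier results of these data known. Shares and percentiles over all tested genes are therefore background and not a test of the set. With library totals in place of scaling factors the genes called over the whole table were 2084 higher and 3987 lower, against 2932 and 2786, and the 7 genes were all still called higher. The median log2 fold change of the 7 was 1.78, beside 0.0025 over all tested genes. Every one of the 7 lay above the 97.5th percentile of all tested genes, a log2 fold change of 1.06. These are levels relative to all mRNA of a culture, so more transcript per cell and a different mix of cells cannot be told apart.

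**Figure D1:**
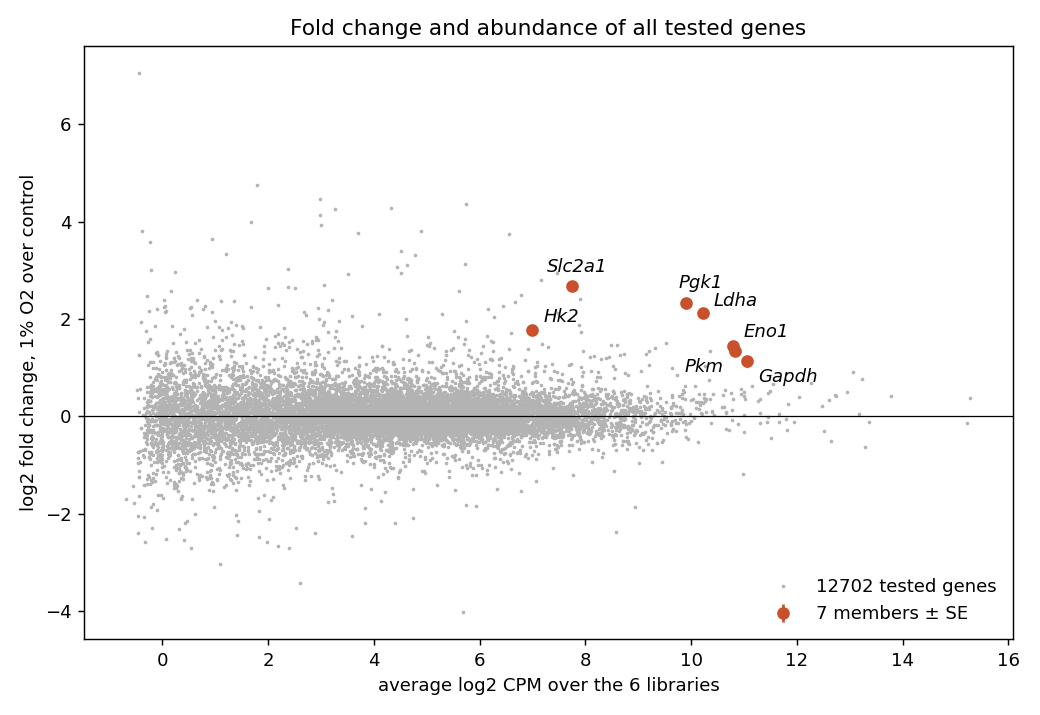
Log2 fold change (1% O2 over control, vertical axis) against average log2 CPM over the 6 libraries (horizontal axis) for 12702 tested genes in grey and the 7 glucose uptake and glycolysis genes in red, with bars for the standard error, mostly smaller than the points. The 7 genes lie between 1.14 and 2.67 on the vertical axis, all above the 97.5th percentile of all tested genes at 1.06.

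Because the 7 genes rose together, the DNA before their starts is shown for 4 of them: Slc2a1 and Gapdh, which rose the most and the least, Ldha, which held the most motif matches, and Hk2, which held none. The RefSeq promoter table (build GRCr8, not the rn6 build named for the counts) gave 7 windows of 300 bases for 6 of the 7 genes, from 250 before to 50 after the annotated start, with 2 windows for Eno1. Pgk1 had no entry. Each line gives the 250 bases before the start, 5′ to 3′ on the gene's strand. Capitals mark whole matches on either strand to the core of the hypoxia response element, ACGTG or GCGTG, and to the GC box GGGCGG, the motif that the transcription factor SP1 is known to bind.
Slc2a1: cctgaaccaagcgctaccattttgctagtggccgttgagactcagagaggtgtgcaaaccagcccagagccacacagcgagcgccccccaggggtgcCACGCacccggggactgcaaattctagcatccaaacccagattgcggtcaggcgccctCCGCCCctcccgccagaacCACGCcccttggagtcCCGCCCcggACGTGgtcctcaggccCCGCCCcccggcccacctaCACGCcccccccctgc
Hk2: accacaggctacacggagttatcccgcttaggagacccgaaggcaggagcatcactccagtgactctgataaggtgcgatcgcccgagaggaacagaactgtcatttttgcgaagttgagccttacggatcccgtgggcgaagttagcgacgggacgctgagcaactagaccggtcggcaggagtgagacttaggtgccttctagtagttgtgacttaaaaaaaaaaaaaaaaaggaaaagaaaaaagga
Gapdh: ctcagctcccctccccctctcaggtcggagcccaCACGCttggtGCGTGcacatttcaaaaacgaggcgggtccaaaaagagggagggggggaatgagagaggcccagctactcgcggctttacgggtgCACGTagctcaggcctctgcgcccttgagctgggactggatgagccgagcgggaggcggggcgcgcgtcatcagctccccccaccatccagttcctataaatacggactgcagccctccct
Ldha: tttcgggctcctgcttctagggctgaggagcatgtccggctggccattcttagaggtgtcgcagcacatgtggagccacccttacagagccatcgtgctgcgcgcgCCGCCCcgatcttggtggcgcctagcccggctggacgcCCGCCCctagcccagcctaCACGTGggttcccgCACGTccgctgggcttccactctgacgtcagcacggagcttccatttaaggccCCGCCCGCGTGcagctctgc
The stretches are chr5:138002272-138002521 on the plus strand for Slc2a1, chr4:116841276-116841525 on the minus strand for Hk2, chr4:159652468-159652717 on the minus strand for Gapdh and chr1:106507842-106508091 on the plus strand for Ldha.

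The whole Ldha window held 6 matches to the hypoxia response element core and 3 GC boxes, of which 4 and 3 lie whole in the printed stretch. Its ACGTG matches at -87 to -83 and -86 to -82, counted with 0 as the first base of the transcript, are the same palindrome read on both strands. Slc2a1 held 4 core matches, the nearest to the start at -16 to -12, and 3 GC boxes between -95 and -30. Gapdh held 3 core matches, the nearest to the start at -121 to -117, and 0 GC boxes. In Eno1 the upstream window held 1 core match and 0 GC boxes, and the downstream window held 2 of each. Pkm held 1 GC box and 0 core matches. Neither string was found in the Hk2 window. A core match was present in 5 of the 7 windows, both Eno1 windows among them, and in 41.6% of all 33469 RefSeq windows of this length. A GC box was present in 4 of 7 and in 33.1%. The 250 bases before the start were 49.6% G or C for Hk2 and 54.4% to 69.2% in the other windows. The strings searched for are mostly G and C, and the 33469 windows were not matched for base content. A match is a string of letters and not a bound site, and no binding data were used here.

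**Figure D2:**
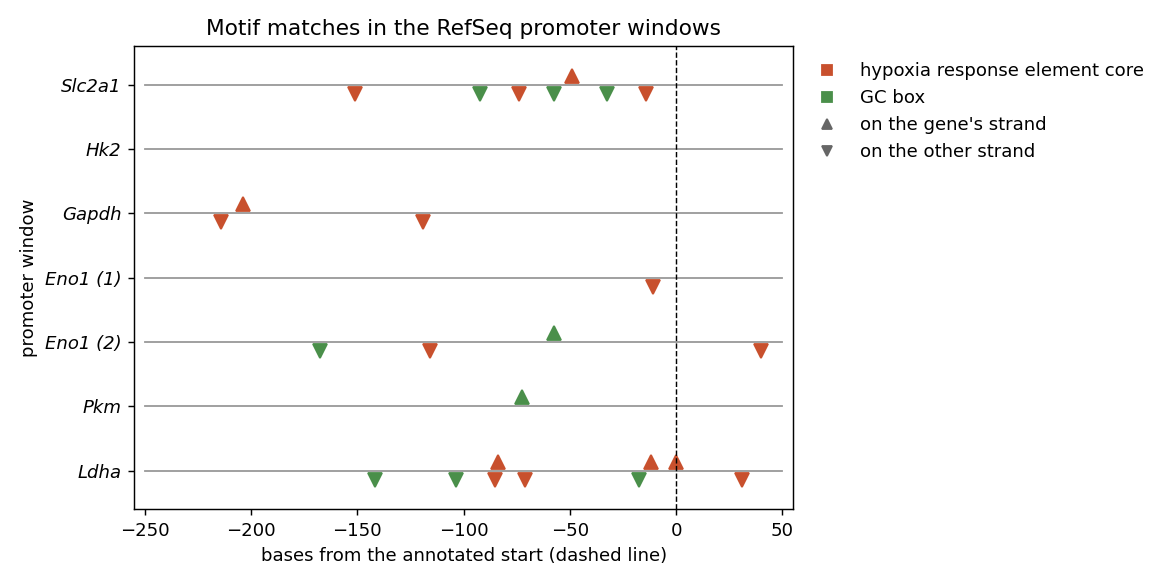
Matches to the hypoxia response element core (red) and to the GC box (green) in the 7 RefSeq promoter windows, by distance in bases from the annotated start, with upward marks for the gene's own strand and downward marks for the other strand. Eno1 has 2 windows; the Ldha and Slc2a1 windows hold 9 and 7 matches, and the Hk2 window holds 0.

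Slc2a1 (ENSRNOG00000007284), the glucose transporter, changed the most. Its reads numbered 778, 826 and 780 in the controls and 6668, 5257 and 5381 at 1% O2. Scaled with TMM factors to CPM, read counts per library of equal size, the values were 57.0, 60.2 and 56.7 in the controls and 371.3, 361.4 and 374.6 at 1% O2. The groups were far apart, with the lowest library at 1% O2 6.01 times the highest control. The mean went from 58.0 ± 1.9 to 369.1 ± 6.9 CPM (SD, n = 3 each). The log2 fold change was 2.67 ± 0.05 (SE), and edgeR's adjusted p was 4.70e-14. Of the 12702 tested genes, 29 had a larger rise.

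Hk2 (ENSRNOG00000006116), which commits glucose to the cell, started from nearly the same number of reads as Slc2a1 but rose less. It had 770, 801 and 783 reads in the controls and 3485, 2751 and 2973 at 1% O2. In CPM this was 56.4, 58.4 and 56.9 against 194.0, 189.1 and 207.0. The groups did not overlap, and Hypoxia replicate 3 was the highest library, as it was for each of the 7 genes. The mean rose from 57.2 ± 1.0 to 196.7 ± 9.2 CPM, a log2 fold change of 1.78 ± 0.05 and edgeR gave an adjusted p of 5.22e-12. The coefficient of variation at 1% O2 was 4.70%, the largest of the 7 genes in that group. Counting error alone gives 1.69% to 1.91% in those libraries.

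Gapdh (ENSRNOG00000018630), the first enzyme of the energy-yielding steps and a common reference gene for measuring other transcripts, rose the least. The controls gave 1271, 1430 and 1310 CPM, and the libraries at 1% O2 gave 2912, 2904 and 3022. Control replicate 2 was the highest control, yet the lowest library at 1% O2 was still 2.03 times as high. The mean went from 1337 ± 83 to 2946 ± 66 CPM, a log2 fold change of 1.14 ± 0.05 with 2.59e-10 as edgeR's adjusted p. Even so, 269 tested genes rose more. By reads gained it ranked 10th of all tested genes, with 1609 CPM.

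Pgk1 (ENSRNOG00000058249), which makes the first ATP of the pathway's yield, had the second largest fold change of the 7. Its controls gave 318.8, 322.3 and 310.6 CPM, and the libraries at 1% O2 gave 1571, 1586 and 1625. The groups were widely separated and both were tight, with coefficients of variation of 1.89% and 1.74%. The mean rose from 317.2 ± 6.0 to 1594 ± 28 CPM. This gives a log2 fold change of 2.33 ± 0.04 (edgeR, adjusted p = 4.70e-14).

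Eno1 (ENSRNOG00000017895) and Pkm (ENSRNOG00000011329), the enzymes of the last steps before pyruvate, resembled each other in reads and in response. Eno1 gave 929.2, 996.1 and 919.8 CPM in the controls and 2588, 2557 and 2647 at 1% O2. Pkm, whose enzyme makes pyruvate, gave 998.4, 1084 and 1004 CPM in the controls and 2630, 2565 and 2648 at 1% O2. For both, the groups were well apart, with Control replicate 2 the highest control and Hypoxia replicate 2 the lowest library at 1% O2. This order of libraries is not particular to the pair. Control replicate 2 was the highest control for all 7 genes, and Hypoxia replicate 2 the lowest at 1% O2 for all but Pgk1. The log2 fold change of Eno1 was 1.45 ± 0.04 (edgeR, adjusted p = 7.55e-12). That of Pkm was 1.35 ± 0.04 (edgeR, adjusted p = 1.80e-11).

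Ldha (ENSRNOG00000013009), the lactate-forming enzyme, had the third largest fold change of the 7. The controls gave 443.6, 467.5 and 431.3 CPM, and the libraries at 1% O2 gave 1928, 1908 and 1994. No overlap was seen, with the lowest library at 1% O2 4.08 times the highest control. The mean rose from 447.4 ± 18.4 to 1943 ± 45 CPM, a log2 fold change of 2.12 ± 0.04 with an adjusted p of 1.81e-13 by edgeR.

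**Figure D3:**
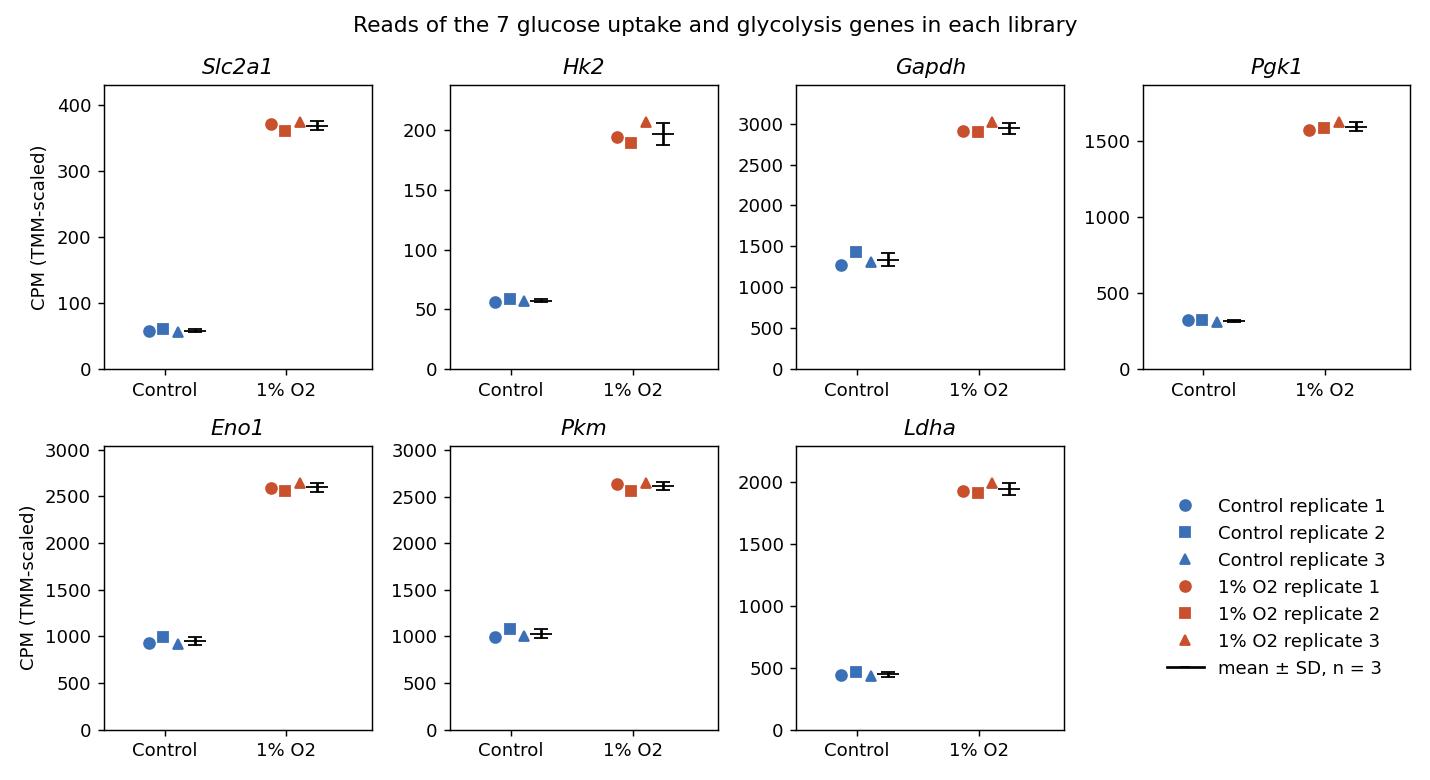
CPM of each of the 7 genes (vertical axis, own scale from 0 in each panel) in the 3 control libraries (blue) and the 3 libraries at 1% O2 (red), with marker shapes for the replicate number and black bars for the mean ± SD. In every panel all libraries at 1% O2 lie above all controls, and Control replicate 2 is the highest control.

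All 7 genes lay above all controls in all 3 libraries at 1% O2, where 28.2% of tested genes did so. Reads within a group were also set against counting error. Over the 3 controls, with expected counts set by library totals, the chi-square on 2 degrees of freedom was 0.685 for Hk2, 2.10 for Slc2a1 and 3.73 for Pgk1. It was 23.7 for Ldha, 57.5 for Eno1, 70.8 for Pkm and 157.2 for Gapdh. At 1% O2 the same value ran from 2.62 for Slc2a1 to 32.5 for Gapdh, with 10.9 for Hk2 and 11.3 for Pgk1. This measure sets separate libraries against counting noise alone and grows with the number of reads, so it sets no gene apart from another. Control replicate 2 was the highest control for 7 of 7 genes, and the share of all tested genes for which it was so was not counted. Its log2 CPM exceeded the mean of the other controls by 0.03 for Pgk1, 0.04 for Hk2, 0.08 for Slc2a1, 0.10 for Ldha, 0.11 for Eno1, 0.12 for Pkm and 0.15 for Gapdh. All 7 differences lie within the range from -0.31 to 0.20 given for abundant genes, and their part in the results was measured by leaving this library out. Without Control replicate 2 the log2 fold changes ranged from 1.19 for Gapdh to 2.70 for Slc2a1, and 7 of 7 were called higher. In that fit 3081 of all 12959 tested genes were called higher.

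Reads of the 7 genes together took 0.418%, 0.457% and 0.421% of all assigned reads in the controls, and 1.18%, 1.17% and 1.21% at 1% O2. The 95% Wilson interval was widest for Hypoxia replicate 3, at 1.20% to 1.21%, and such intervals cover counting error only. The mean share was 0.432% ± 0.022 in the controls and 1.19% ± 0.02 at 1% O2 (SD, n = 3 each), 2.75 times as high. The two-sided exact permutation test returned p = 0.1, which is the floor for 3 libraries against 3. None of the 7 genes was among the 10 most abundant of any library. In CPM they gained 8067 together, 6.39% of the summed gain of all 2932 genes called higher. Eno1, Gapdh, Pkm, Ldha and Pgk1 ranked 9th, 10th, 11th, 12th and 16th of all tested genes by CPM gained, and Slc2a1 and Hk2 ranked 59th and 121st. CPM is not corrected for transcript length, so these are reads gained and not molecules, and levels are not compared between genes.

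Among the 3176 most abundant genes, to which all 7 belong, 72 were called at least 2-fold higher. The 7 genes make up 7 of these, with 65 others.

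The division of reads among the 7 genes also shifted. Gapdh took 31.9% ± 0.6 of their reads in the controls and 24.0% ± 0.1 at 1% O2. Pkm went from 24.5% ± 0.02 to 21.3% ± 0.2 and Eno1 from 22.6% ± 0.2 to 21.2% ± 0.04. In return Ldha went from 10.7% ± 0.2 to 15.9% ± 0.07, Pgk1 from 7.57% ± 0.27 to 13.0% ± 0.1, Slc2a1 from 1.38% ± 0.02 to 3.01% ± 0.03 and Hk2 from 1.37% ± 0.04 to 1.60% ± 0.04 (SD, n = 3 each). The groups did not overlap for any of the 7 shares, and each exact permutation test gave p = 0.1, the smallest possible. The 7 shares divide the same total, so a gain in some lowers the others, and they are not 7 separate results. Shares within other sets of genes were not counted. As a related measure, within-library ratios of reads did not overlap in 71.8% of pairs among the 3176 most abundant genes.

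**Figure D4:**
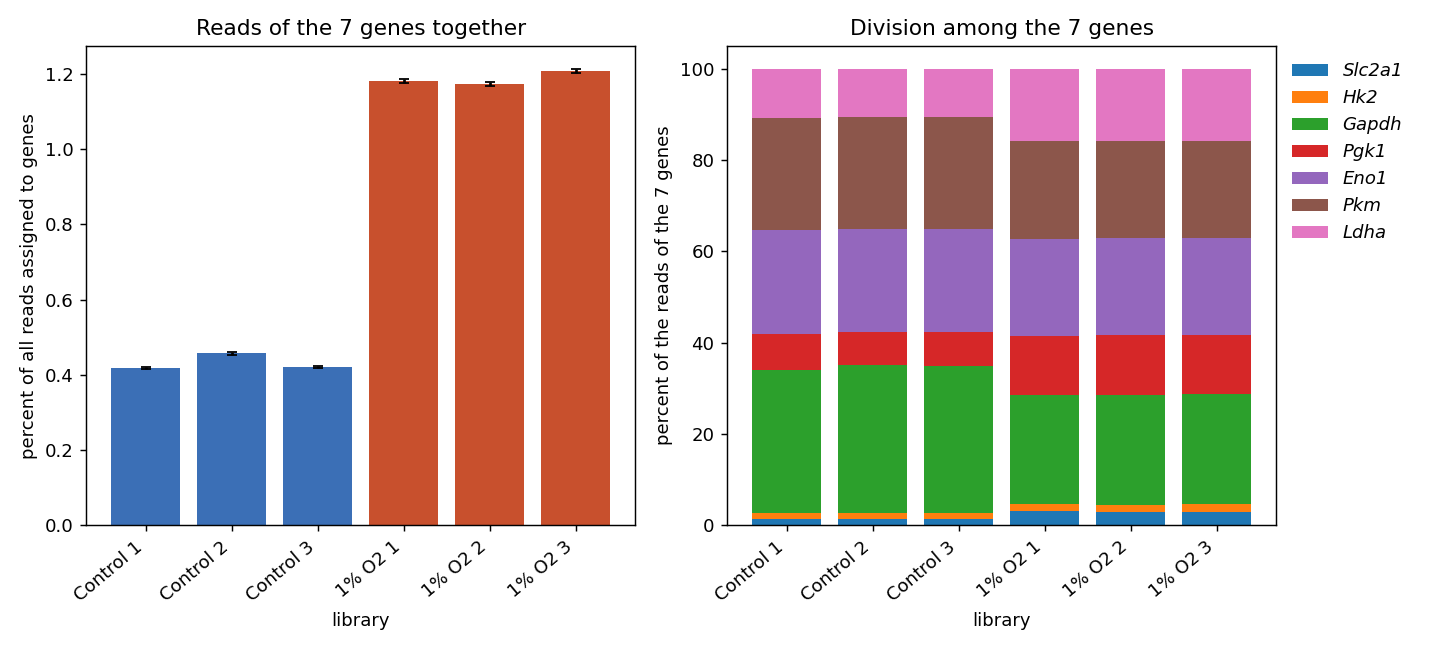
Left, reads of the 7 genes together as a percentage of all assigned reads in each library, with 95% Wilson intervals as bars; right, the division of those reads among the 7 genes. The controls lie at 0.418% to 0.457% and the libraries at 1% O2 at 1.17% to 1.21%, and the Gapdh segment is smaller at 1% O2 while those of Ldha, Pgk1 and Slc2a1 are larger.

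Whether the 7 genes rose to different degrees was read from ratios of reads within a library, which need no scaling factor. Relative to Gapdh, Slc2a1 was higher at 1% O2 by 1.53 ± 0.03 on the log2 scale (SE from the libraries), or 2.89-fold. Pgk1 was higher by 1.19 ± 0.05, Ldha by 0.98 ± 0.03, Hk2 by 0.64 ± 0.04, Eno1 by 0.31 ± 0.02 and Pkm by 0.20 ± 0.02. For all 6 genes the ratios in the 3 libraries at 1% O2 lay above those in all controls, where 1.07% of tested genes did so. That share is small by the choice of Gapdh, against which the median tested gene changed by -1.14 on the log2 scale. Gapdh rose the least of the 7, so the direction of these 6 ratios restates the fold changes. By a two-sided exact permutation test p was 0.1 for each, and 0.1 after Benjamini-Hochberg adjustment over the 6 ratios, so none can pass 0.05 in this design. Over all 21 pairs of the 7 genes the ratios of the groups did not overlap in 21. For comparison, the ratios did not overlap in 53.5% of all pairs of tested genes and in 71.8% of pairs among the 3176 most abundant genes.

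By the mean within-library ratios the order of response was Slc2a1, Pgk1, Ldha, Hk2, Eno1, Pkm and Gapdh. Reads shared with the gene copies described below may affect this order by an unknown amount. The closest neighbours were Eno1 and Pkm, whose log2 ratio lay between -0.126 and -0.104 in the controls and between -0.023 and -0.00064 at 1% O2. That is a difference of 0.11 ± 0.01 (SE), or 1.08-fold. Pkm exceeded Gapdh by 0.20 ± 0.02 and Pgk1 exceeded Ldha by 0.21 ± 0.02. The steps from Hk2 down to Eno1, from Ldha down to Hk2 and from Slc2a1 down to Pgk1 were 0.33 ± 0.03, 0.34 ± 0.03 and 0.34 ± 0.02. Slc2a1 and Hk2 had nearly equal reads in the controls, with a log2 ratio between -0.0055 and 0.044, and differed by 0.86 to 0.94 at 1% O2. The exact permutation p was 0.1 for each pair, and 0.1 after adjustment over the 21.

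**Figure D5:**
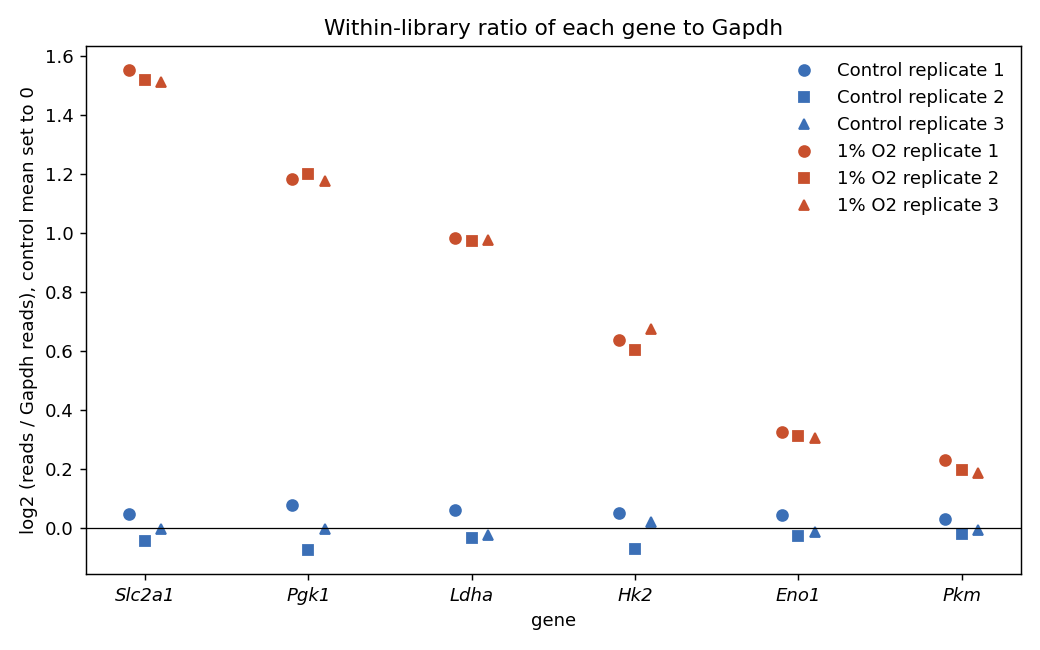
Log2 ratio of each gene's reads to Gapdh reads in the same library, with the mean of the controls set to 0, for 3 control libraries (blue) and 3 libraries at 1% O2 (red), with marker shapes for the replicate number. All libraries at 1% O2 lie above all controls, from Slc2a1 with a mean of 1.53 on the left to Pkm with 0.20 on the right.

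Loci named as copies of a gene may share reads with it, which was not measured here. The RefSeq gene table (GRCr8) lists 81 loci named as Gapdh copies by the suffix ps, most of them typed as pseudogenes, with 31 for Eno1, 30 for Ldha, 19 for Pkm and 8 for Pgk1. It lists 0 with such names for Slc2a1 and Hk2, and copies under other names were not searched for. How the counting treated reads that fit several loci is not given in the sources used here. The values of the 5 genes with such copies may be affected by an unknown amount, and Slc2a1 and Hk2 were not checked for shared reads. One locus, the pseudogene LOC120094538, overlaps the span of Pkm, and the strand setting of the counting is not given either.

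The genes whose profile was most like the mean of the 7 were sought among 5036 other tested genes whose average log2 CPM reached 5. Likeness was the root mean square distance between log2 CPM profiles over the 6 libraries, each centred on its own mean. ENSRNOG00000033663 was nearest, at 0.057. It had 111.4, 111.8 and 110.8 CPM in the controls and 371.6, 356.2 and 388.8 at 1% O2. ENSRNOG00000019428 followed at 0.058, with 20.6, 21.6 and 19.8 CPM against 66.4, 67.9 and 73.4. The average log2 CPM takes in both groups, and the controls of ENSRNOG00000019428 alone lie below 5. It entered the search only through its reads at 1% O2, so the cutoff favours genes that rose. These 2 IDs carry no symbol in the files used. Of the 7 genes themselves, Hk2 was nearest to the mean profile, at 0.038, and Slc2a1 was farthest, at 0.42. Each of the 7 helps to form that mean, so these distances are not comparable with those of the other genes. Hk2 also had the median log2 fold change of the 7, 1.78.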

How the data were processed

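Whole-number counts of reads, not normalised, were deposited for each Ensembl gene ID. HISAT2, featureCounts and DESeq2 are named with the rat build rn6, per the submitters' processing notes. Their versions and the annotation release, strand setting included, were not given in the sources used here. Libraries came from a stranded mRNA kit, per the labels' protocols.

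Counts were fitted with edgeR 4.0.16 in R 4.3.3 over all genes kept by filterByExpr (minimum count 10, minimum total 15). TMM factors and a two-sided quasi-likelihood F-test with 1 group term were used. Adjusted p-values cover all 12702 tested genes, with a threshold of 0.05. Standard errors of fold changes were taken as |log2 fold change| over the root of the F statistic. They were 0.87 to 1.91 times the SE computed from the spread of log2 CPM (prior count 2) between libraries. Ratios added 0.5 to each count. The fit was tested on simulated data. Members, lists and rules were chosen with earlier results of these data known. All 7 members were to be named, with the 2 most similar tested genes. The fixed lists of further glycolysis genes and cell type markers were not run, since their IDs could not be named. Alternatives used limma 3.58.1 and DESeq2 1.42.0.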

Additional observations from a re-analysis of the deposited data

How the results depend on the processing

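All 7 genes kept their rise and their call under all 14 alternatives with their own fold changes (median-of-ratios factors, library totals, TMM without the 7 genes, 2 other low-count filters, DESeq2, limma-voom, a replicate block and leaving out each library). The largest shift came from library totals, which lower log2 fold changes by a median of 0.09, to 1.05 for Gapdh and 2.58 for Slc2a1. Leaving out 1 library gave 1.10 to 1.19 for Gapdh and 2.65 to 2.70 for Slc2a1. The replicate block gave 1.14 for Gapdh, 2.67 for Slc2a1 and 5295 changed genes in place of 5718. The adjusted p moved more: by edgeR that of Pgk1 was 4.70e-14 as reported and 1.09e-10 with the replicate block. It was 3.85e-30 without Control replicate 2 and 5.19e-52 without a low-count filter. Over all alternatives, a threshold of 0.01 included, the changed genes numbered 3981 to 6071. Same-numbered libraries correlated at -0.04, -0.05 and 0.01 in their deviations from group means, and different-numbered ones at -0.01 to 0.05. No label says whether a number marks a shared source, and with 3 libraries per group these values cannot decide it.

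Relative to the sum of the other 6 genes in place of Gapdh, Eno1 and Pkm turned lower, by -0.12 and -0.26 on the log2 scale, by the construction of that sum, which holds the genes with larger rises. The difference in the summed share of reads, 0.756 percentage points, ranged from 0.745 to 0.768 with 1 library left out. Without the 10 most abundant genes of each library it was 0.905, but as a share of a smaller total. With at least 770 reads for each of the 7 genes in every library, depth limits only small differences. The alternatives set for further glycolysis genes were not run, since their IDs could not be named.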

Other observations

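Gapdh is often used to scale other transcripts, and its rise shifts every ratio taken to it by the same amount within a library. The median within-library ratio to Gapdh over the other 12701 tested genes changed by -1.14 on the log2 scale between control and 1% O2. On that scale 11822 genes (93.1%) were lower in all 3 libraries at 1% O2 than in all controls and 136 were higher. These counts follow from the choice of scale and do not show that those transcripts fell. By TMM-scaled counts the same libraries gave 2932 genes higher and 2786 lower by edgeR.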
